A study of Mus musculus with 366 samples.

Results

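B cell marker genes were followed through the aortas of a panel of atherosclerosis-prone mice. The set held 9 genes of the 17097 with a gene symbol of their own on the array: Ighm, Cd79a, Cd79b, Blk, Cd22, Cr2, Ms4a1, Fcer2a and Pou2af1. A gene was read from the probe set that the platform annotation assigned to its symbol alone, and from the probe set with the highest mean where there were several. All 9 genes were found, on 12 probe sets, and none was left out by a filter on low values.

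The mice were F1 females of 24 weeks. Each was the offspring of an inbred or recombinant inbred strain and of C57BL/6J stock with the human APOE-Leiden and CETP transgenes, which every group carried, so that each mouse also had a C57BL/6J genome. They ate chow for 8 weeks and then a Western diet for 16 weeks, and RNA came from the whole aorta, arch to mid-abdomen, after the surrounding fat had been trimmed away. The series held 366 arrays of 101 strains, 1 array per mouse. These fell into 36 BXD, 21 AXB or BXA, 9 CXB and 4 BXH recombinant inbred strains and 31 classical inbred strains. There were 95 strains with at least 2 arrays, 360 arrays in all, and only these entered the tests. A group is named below by the inbred strain of the cross. There was no group on chow alone and none without the transgenes, so every comparison was among strains or among mice of a strain.

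B lymphocytes sense antigen through a receptor made of membrane immunoglobulin and a signalling pair, and each mature cell carries many copies of it. In mouse arteries B cells are rare inside plaques and commoner in the outer coat, in the fat and lymph nodes around the vessel and in lymphoid aggregates that can form beside plaques. Ighm encodes the heavy chain of IgM. Cd79a and Cd79b encode the signalling pair that carries the receptor's activation motifs. Blk is a Src family kinase of B cells that acts just below the receptor. Cd22 is an inhibitory co-receptor that binds sialic acid, and Cr2 encodes the complement receptors CR2 and CR1, which lower the threshold for activation. Ms4a1 encodes CD20, the target of rituximab in patients. Fcer2a encodes CD23, the low-affinity receptor for IgE, typical of follicular B cells. Pou2af1 encodes OCA-B, the coactivator that joins the octamer-binding proteins Oct-1 and Oct-2 on immunoglobulin promoters.

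Because most of these genes were correlated in the arrays, the stretches around their starts are given for 4 of them. RefSeq windows of 250 bases before and 50 bases after a transcription start (build GRCm38.p6) were found for 5 of the 9 genes, in 7 windows, 3 of them for Fcer2a. They were searched on both strands for the octamer ATGCAAAT, the octamer without its first base (TGCAAAT, which the full octamer contains), the E-box CAGGTG of the E2A proteins, the EBF1 core CCCNNGGG and the ETS core GGAAGT. Capitals mark the matches in these windows, 5′ to 3′ on the strand of the gene.
Cd79a, chr7:24897247-24897546, plus strand: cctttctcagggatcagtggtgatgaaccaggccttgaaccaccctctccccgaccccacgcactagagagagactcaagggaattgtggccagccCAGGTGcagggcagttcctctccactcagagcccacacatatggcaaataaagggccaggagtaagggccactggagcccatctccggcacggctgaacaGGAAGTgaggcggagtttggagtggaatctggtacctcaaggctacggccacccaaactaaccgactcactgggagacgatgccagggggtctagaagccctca
Cd22, chr7:30878979-30879278, minus strand: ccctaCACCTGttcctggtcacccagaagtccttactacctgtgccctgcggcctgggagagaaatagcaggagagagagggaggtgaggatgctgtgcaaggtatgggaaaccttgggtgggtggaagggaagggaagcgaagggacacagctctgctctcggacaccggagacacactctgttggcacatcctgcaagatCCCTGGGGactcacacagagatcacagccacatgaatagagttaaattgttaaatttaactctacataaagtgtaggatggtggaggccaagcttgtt
Cr2, chr1:195176670-195176969, minus strand: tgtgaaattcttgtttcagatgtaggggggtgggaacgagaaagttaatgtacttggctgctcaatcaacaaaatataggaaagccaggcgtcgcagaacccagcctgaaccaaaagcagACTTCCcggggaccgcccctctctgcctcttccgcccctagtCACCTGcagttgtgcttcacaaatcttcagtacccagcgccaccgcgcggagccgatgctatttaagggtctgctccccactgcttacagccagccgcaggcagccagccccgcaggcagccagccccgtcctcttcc
Pou2af1, chr9:51213440-51213739, plus strand: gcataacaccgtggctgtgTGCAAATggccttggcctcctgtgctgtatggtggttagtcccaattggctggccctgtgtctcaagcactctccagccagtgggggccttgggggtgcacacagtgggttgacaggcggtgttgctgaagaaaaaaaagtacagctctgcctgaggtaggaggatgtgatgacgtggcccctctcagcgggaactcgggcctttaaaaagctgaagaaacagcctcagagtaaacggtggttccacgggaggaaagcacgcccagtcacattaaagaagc

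The E-box matched in Cd79a 154 bases before the start, in Cd22 245 bases before it and in Cr2 88 bases before it, the last pair on the opposite strand. Another window, of Fcer2a, held it as well, so that 4 of the 7 windows, from 4 of the 5 genes, had a match. Of all 32851 promoter windows of this length, 20.2% did. GGAAGT matched in Cd79a, Cr2 and Fcer2a and in 23.8% of all windows. CCCNNGGG matched in Cd22 alone and in 13.7% of all windows. The full octamer was in none of the 7 windows and in 1.74% of all windows, and the shorter form was in Pou2af1 only, 231 bases before the start, and in 4.02% of all windows. These matches describe the letters of the windows.

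The genes differed widely in signal. Values are log2 intensities from RMA, a method that corrects background, equalises the arrays and summarises the probes of a set, so a difference of 1 is a doubling. Levels are not comparable between genes, because each probe set binds with its own efficiency. Array medians ran from 3.17 to 3.40, and the median of all probe set means was 3.28. Acta2, the smooth muscle actin, had a mean of 11.6 and Myh11, the smooth muscle myosin, a mean of 8.85, both high on the array. The adipocyte genes Fabp4 and Ucp1 had means of 13.5 and 12.9, although the fat had been trimmed.

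Among the receptor chains, Ighm lay near the bottom of the range, at 2.22 in the lowest array, 2.64 in the median array and 5.60 in the highest. Cd79a ran from 3.69 through a median of 4.45 to 6.98. Cd79b ran from 4.14 through 5.81 to 9.70, so its highest array was 14.8-fold above its median. Ighm and Cd79a were each more than 1 above their medians in 3 arrays and Cd79b in 55. Ighm was read from the only probe set that carried its symbol alone, and probe sets with several symbols were not used. Which part of the transcript that set binds was not given in the sources used here.

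The kinase Blk ran from 2.40 through 3.19 to 6.04. The inhibitory co-receptor Cd22 ran from 3.81 through 4.98 to 9.01, so its highest array was 16.3-fold above its median. The complement receptor gene Cr2 ran from 2.30 through 2.89 to 5.52. Cd22 had 32 arrays more than 1 above its median and 2 arrays more than 1 below it, whereas Blk and Cr2 had 14 and 10 above and 0 below.

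CD20, from Ms4a1, was the most variable of the 9. It ran from 2.71 through 5.62 to 9.40, with 65 arrays more than 1 above the median and 94 more than 1 below it. The IgE receptor gene Fcer2a ran from 2.21 through 2.90 to 5.51, with 14 arrays more than 1 above the median and 0 as far below. The coactivator gene Pou2af1 ran from 2.68 through 3.85 to 7.59, with 53 arrays above and 10 below by that measure. Ms4a1 and Cd79b had arrays well to both sides of the median, and Ighm, Cd79a, Blk, Cr2 and Fcer2a had a long upper tail only.

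**Figure D1:**
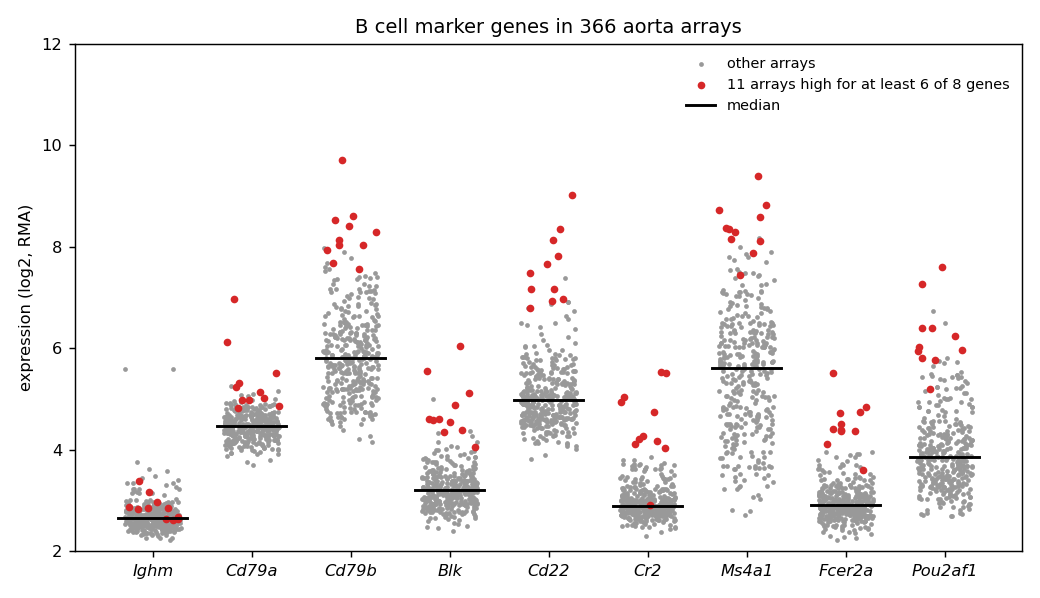
Expression (log2, RMA) of the 9 genes in 366 arrays, 1 point per array, with the median as a bar and, in red, the 11 arrays that were among the 20 highest for at least 6 of the 8 genes other than Ighm. The red arrays were picked by their high values, so their place in the 8 panels is a description, and 1 of them, C58/J replicate 4, lies at the median for Cr2, at 2.90. The highest Ighm arrays, at 5.60 and 5.59, are grey.

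The very highest arrays of the genes other than Ighm were in part the same mice. Replicate 1 of AKR/J was the highest array for Cd79a, Cd79b, Ms4a1, Cd22, Blk, Pou2af1 and Fcer2a, and with 5.52 it was just under replicate 1 of AXB13/PgnJ, also 5.52, for Cr2. Taking the 20 highest arrays of each gene except Ighm gave 48 different arrays, of which 7 were on all 8 lists. These 7 were replicate 1 of AKR/J, AXB13/PgnJ, BXA1/PgnJ and SWR/J, replicate 2 of BXD11/TyJ, and replicate 3 of BXD43/RwwJ and CXB3/ByJ. With 4 more arrays that were on at least 6 lists, 11 arrays of 10 strains were high for most of the set. The 20 highest Ighm arrays included 1 of these 11.

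Means of some lists of other cell types were above their medians in all 11 of these arrays, and those of other lists only in part of them. The mean over 13 T cell genes ran from 3.56 to 5.72 in them, against a median of 3.20 over all arrays, and they ranked between 1 and 34 of 366 by it. In AKR/J replicate 1, which ranked 1, 12 of the 13 T cell genes were more than 1 above their medians. The mean of 11 genes listed for lymph node stroma and vessels ran from 4.96 to 6.21 against a median of 4.45, and that of 8 MHC class II genes from 6.91 to 8.19 against a median of 6.40. The lymph node list includes Lta and Ltb, lymphotoxin genes that lymphocytes themselves express. The mean of 6 adipocyte genes ran from 10.6 to 11.2 against 10.95, and that of 6 smooth muscle genes from 5.80 to 9.07 against 7.93. The mean of 10 macrophage genes ran from 6.30 to 7.42 against 6.44, and that of 6 plasma cell genes from 4.75 to 6.01 against 4.96. These last 4 lists lay on both sides of their medians, but not evenly. The plasma cell mean was below its median only in BALB/cJ replicate 4, at 4.75. The macrophage mean was below its median only in that array, at 6.30, and in BXD11/TyJ replicate 2, at 6.37. In RNA from whole tissue, more B cells and more RNA per B cell cannot be told apart, and the part that nodes or aggregates near the vessel had in the result was not tested.

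The next question was how far these levels belonged to the strain. An F test among the 95 strains, from limma with Benjamini-Hochberg adjustment over all probe sets, called 6 of the 9 genes at an adjusted p under 0.05, which is 66.7%. The background was high: 77% of all probe sets were called. The 6 were Ms4a1 (adjusted p = 0.00054), Fcer2a (adjusted p = 0.0012), Cd22 (adjusted p = 0.0072), Cd79b (adjusted p = 0.012), Cd79a (adjusted p = 0.038) and Pou2af1 (adjusted p = 0.049). Cr2, Blk and Ighm had adjusted p of 0.086, 0.13 and 0.57. The share of genes called was therefore no higher than that of all probe sets. Leaving out replicate 1 of every strain left 3 called genes and leaving out replicate 2 left 2, and without AKR/J replicate 1 the adjusted p of Cd79a was 0.065.

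Most of the variance lay between mice of a strain. The share of variance that lay among strains (intraclass correlation) was 16.0% for Ms4a1, 15.0% for Fcer2a, 11.8% for Cd22 and 10.8% for Cd79b. It was 8.53% for Cd79a, 7.81% for Pou2af1, 6.43% for Cr2, 5.23% for Blk and -0.98% for Ighm, a value below 0 meaning that strain means spread no more than the mice in them would give. The median gene had a share of 20.8%, and all 9 genes lay under it. Mice of 1 strain differed with an SD of 1.15 for Ms4a1, 0.83 for Cd79b, 0.78 for Pou2af1, 0.67 for Cd22 and 0.31 for Cd79a, on the log2 scale.

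Strain means nevertheless covered a wide range. Ms4a1 ran from 3.71 ± 0.31 (SD, n = 2) in BXD18/TyJ, 3.74 ± 1.65 (SD, n = 4) in KK/HlJ and 4.08 ± 0.68 (SD, n = 4) in C57BLKS/J to 7.05 ± 0.93 (SD, n = 4) in C58/J, 7.07 ± 1.27 (SD, n = 4) in MA/MyJ and 7.62 ± 0.74 (SD, n = 4) in CXB3/ByJ. Cd79b also had BXD18/TyJ and CXB3/ByJ at its ends, from 4.79 ± 0.32 (SD, n = 2) in BXD18/TyJ to 7.51 ± 0.45 (SD, n = 4) in CXB3/ByJ. Cd79a had its lowest mean in LG/J, at 4.03 ± 0.07 (SD, n = 4), and its highest in AKR/J, at 5.25 ± 1.23 (SD, n = 4).

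AKR/J also had the highest mean of Cd22, at 6.62 ± 1.88 (SD, n = 4), of Blk, at 4.16 ± 1.44 (SD, n = 4), of Cr2, at 3.85 ± 1.28 (SD, n = 4), and of Fcer2a, at 3.74 ± 1.36 (SD, n = 4). The means of Pou2af1 ran from 3.03 ± 0.30 (SD, n = 2) in BXD18/TyJ to 5.21 ± 0.49 (SD, n = 4) in CXB3/ByJ. Those of Ighm ran from 2.46 ± 0.16 (SD, n = 4) in BXD50/RwwJ to 3.34 ± 1.504 (SD, n = 4) in LG/J and 3.36 ± 1.51 (SD, n = 4) in CXB7/ByJ. Strains next to each other in these orders lay close together, as sorted means of many strains must, so these steps do not test strain differences. Of the 94 steps between neighbouring strain means, 0 exceeded the SD between mice of a strain for 8 of the genes, and 1 did for Cd79a, where the largest step was 0.37.

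**Figure D2:**
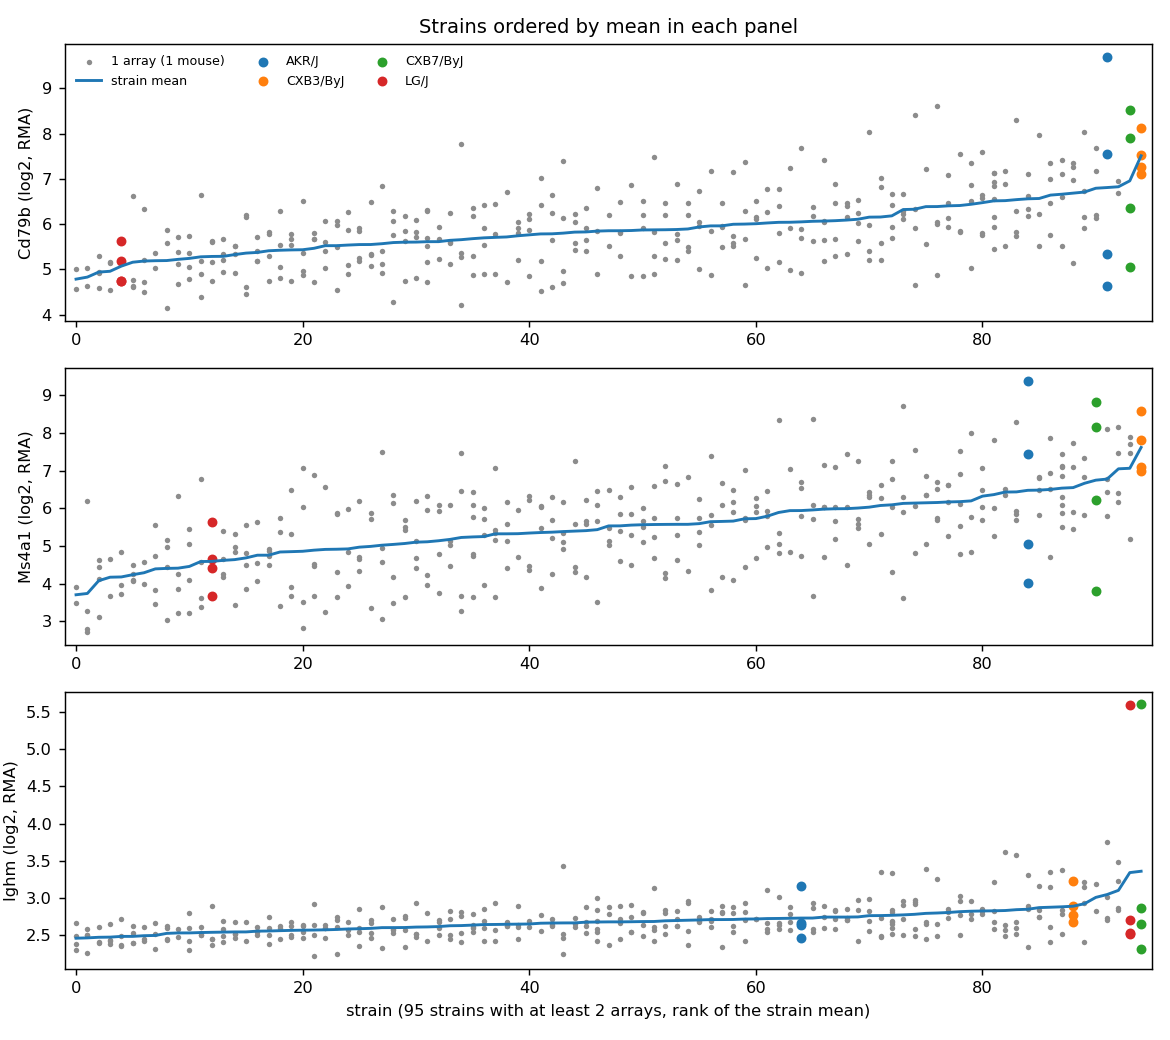
Cd79b, Ms4a1 and Ighm (log2, RMA) in the 95 strains with at least 2 arrays, ordered by strain mean in each panel, with 1 point per array, the strain mean as a line and 4 strains in colour. The arrays of a strain scatter over much of the range of the line, the 4 CXB3/ByJ arrays lie close together at the right for Cd79b and Ms4a1, and the high Ighm means of CXB7/ByJ and LG/J each come from 1 array.

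Each strain was then set against the mean of the other strains in the same fit, with adjustment over all probe sets and strains together. Of the 855 pairs of a gene and a strain, 15 were called, or 1.75%, all of them higher in the strain. Over all probe sets 4.13% of pairs were called in either direction and 2.29% were called higher. The 15 pairs lay in 6 strains, and each of the 15 lost its call when 1 array of its strain was left out.

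In AKR/J 5 genes were called: Cd22 was higher by 1.54 (adjusted p = 0.00088), Blk by 0.92 (adjusted p = 0.0036), Cr2 by 0.87 (adjusted p = 0.0018), Cd79a by 0.78 (adjusted p = 0.00013) and Fcer2a by 0.77 (adjusted p = 0.0067). The 4 Cd22 values were 9.01, 5.55, 4.76 and 7.17, and those of Cd79a were 6.98, 4.64, 4.15 and 5.24. Replicate 1 was far above the rest, replicate 4 was high and the other pair lay nearer the median of all arrays. Without replicate 1, Cd22 was higher by 0.75 (adjusted p = 0.30) and Cd79a by 0.20 (adjusted p = 0.57). Of all probe sets, 13.5% were called in AKR/J.

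CXB3/ByJ showed another pattern, with all of its mice high for Cd79b and Ms4a1. Its Cd79b values were 7.53, 7.11, 8.13 and 7.27, where the median array was at 5.81. Its Ms4a1 values were 7.81, 6.98, 8.58 and 7.11, where the median array was at 5.62. Not every gene was high in each mouse: Cr2 was at 2.71 in replicate 1, where the median array was at 2.89. Called in this strain were Ms4a1, higher by 2.15 (adjusted p = 0.011), Cd79b by 1.65 (adjusted p = 0.0056), Pou2af1 by 1.24 (adjusted p = 0.042) and Fcer2a by 0.75 (adjusted p = 0.0095). Without replicate 3, Cd79b was still higher by 1.45 and Ms4a1 by 1.83, with adjusted p of 0.058 and 0.094. Of all probe sets, 4.46% were called in this strain. Its T cell mean ran from 3.40 to 3.93, against a median of 3.20 in the other strains, its lymph node mean from 4.59 to 5.46 against 4.45, and its MHC class II mean from 6.77 to 7.38 against 6.39. The macrophage mean was also above that median in its 4 arrays, at 6.64 to 7.25 against 6.43, and the endothelial mean was below it, at 6.43 to 6.63 against 6.89. The part of these cells in the calls was not tested.

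CXB7/ByJ was split. Its Cd22 values were 8.13, 5.16, 7.39 and 4.54, so that 2 mice were high and 2 were near the median of all arrays. Cd22 was higher by 1.22 (adjusted p = 0.015) and Fcer2a by 0.71 (adjusted p = 0.016), and without replicate 1 these were 0.61 (adjusted p = 0.43) and 0.36 (adjusted p = 0.43). Of all probe sets, 3.95% were called in CXB7/ByJ. Its smooth muscle mean was low in all 4 arrays, at 5.88 to 6.91 against 7.95, and its neutrophil mean high, at 3.37 to 3.50 against 3.15, while its T cell mean ran from 3.08 to 5.24 against 3.20. What these lists contributed was not tested. BALB/cJ was called for Fcer2a alone, higher by 0.70 (adjusted p = 0.017), and SWR/J for Pou2af1 alone, higher by 1.22 (adjusted p = 0.049). Without replicate 4 of BALB/cJ and replicate 1 of SWR/J these were 0.32 (adjusted p = 0.51) and 0.52 (adjusted p = 0.61). The share of all probe sets called against the other strains was not calculated for BALB/cJ and SWR/J, nor for LG/J, which follows.

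The remaining calls were those of Ighm, in CXB7/ByJ by 0.67 (adjusted p = 0.0034) and in LG/J by 0.65 (adjusted p = 0.0048). The CXB7/ByJ values were 2.87, 2.66, 5.60 and 2.32, and the LG/J values 2.54, 2.71, 2.52 and 5.59. In each strain 1 mouse was high and the others lay between 2.32 and 2.87. Without that mouse the differences were -0.074 and -0.098. The CXB7/ByJ mouse was also high for Cd79b, at 7.89, and for Jchain, the joining chain of secreted IgM and IgA, at 10.6. The LG/J mouse had Cd79b at 5.64, below the median, Cd79a at 4.01 and Jchain at 7.68, above that gene's mean of 6.47.

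Among the progenitors of the recombinant inbred strains, 4 were set against C57BL/6J, whose 6 arrays all 4 contrasts shared. BALB/cJ had 1 of 9 genes called, with 7.08% of all probe sets called, and A/J, C3H/HeJ and DBA/2J had 0 of 9, with 4.86%, 8.85% and 3.53%. By limma at an unadjusted p under 0.05, the counts were 5 in BALB/cJ, 2 in C3H/HeJ and 0 in A/J and DBA/2J. The share of all probe sets at that unadjusted level is not given here, so these counts do not show an excess. The called gene was Fcer2a. Its BALB/cJ values were 3.16, 3.19, 3.52 and 4.84, and its C57BL/6J values lay between 2.74 and 2.93, so the groups did not overlap. The difference was 0.85 ± 0.26 (SE; adjusted p = 0.045 from limma), and the exact permutation p was 0.0095, two-sided, the smallest that 4 against 6 arrays allow. In the 10 fits that left out 1 array the difference stayed between 0.46 and 1.02. The adjusted p was above 0.05 in 8 of them, 6 of which left out a C57BL/6J array. The lowest difference of the 10 was that without BALB/cJ replicate 4 (adjusted p = 0.23). Under the 6 other settings that tested Fcer2a, such as another probe set or scaling, the difference ran from 0.20 to 0.87.

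Ms4a1 had the largest difference in BALB/cJ, 1.54 ± 0.58 (SE; adjusted p = 0.12), with values of 6.43, 5.79, 6.78 and 8.12 against 3.63 to 6.43 in C57BL/6J. It was 1.30 ± 0.49 (SE; adjusted p = 0.10) higher in C3H/HeJ, where all 9 genes had a mean above that of C57BL/6J, by 0.09 to 1.30. Neither difference passed the test. In A/J and DBA/2J the differences ran from -0.32 to 0.63 and from -0.07 to 0.48, the largest in both being that of Cd22.

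Whether the genes moved together was examined with Cd79a as the reference, because its product is part of every B cell receptor. Among mice of the same strain, after strain means had been taken out, 7 of the 8 other genes rose with Cd79a by limma regression over 360 arrays. Of all probe sets, 6.47% rose with Cd79a in this test and 8.1% were called in either direction. Over all genes with 1 symbol the median r with Cd79a was 0.01.

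Cd79b, the partner chain, had a Pearson's r of 0.72 and a Spearman's rho of 0.66, and it rose by 1.96 ± 0.11 (SE) for each 1 of Cd79a (adjusted p = 4.4e-40). Pou2af1 had an r of 0.70, Ms4a1 0.69, Cd22 0.68, Blk 0.67 and Cr2 0.63, with rho from 0.52 in Cr2 to 0.65 in Ms4a1. Fcer2a was looser, with an r of 0.48 and a rho of 0.30 (adjusted p = 1.4e-14). For each of these 7 genes and both coefficients the permutation p, within strains, was 1e-05, the smallest that 100000 permutations can give. Ighm had an r of 0.17 (permutation p = 0.0009) and a rho of 0.18 (permutation p = 0.0036), and its adjusted p over all probe sets, 0.064, missed the threshold. Without the 2 arrays farthest from the median of Cd79a, AKR/J replicate 1 and AXB13/PgnJ replicate 1, the r of the 7 genes ran from 0.38 in Fcer2a to 0.70 in Cd79b, and that of Ighm was 0.16.

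With the mean of the T cell markers as a further covariate, 6 of the 8 remained past the threshold, and Fcer2a did not (adjusted p = 0.23). That mean includes Cd2, which mouse B cells also carry. Here and across strains, taking it out can therefore remove B cell signal as well. With Cd79b as the reference in place of Cd79a, a choice made after the data were seen, all 8 genes were past it, Ighm among them, where 6.03% of all probe sets rose with Cd79b and 7.78% were called in either direction.

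The same relations were examined across strains, on 95 strain means. Here 6 of the 8 genes rose with Cd79a, where 2.02% of all probe sets did. Cd22 had an r of 0.73, Blk 0.69, Cr2 0.63, Cd79b 0.62, Pou2af1 0.62 and Ms4a1 0.59, each with a permutation p of 1e-05, and rho ran from 0.55 to 0.67. Fcer2a had an r of 0.31 (permutation p = 0.0024, adjusted p = 0.076) and a rho of 0.16 (permutation p = 0.13). Ighm had an r of 0.18 (permutation p = 0.087, adjusted p = 0.41) and a rho of 0.32 (permutation p = 0.0017). Without AKR/J and LG/J, the strains farthest from the median of Cd79a, r ran from 0.57 to 0.67 in the 6 genes, and it was 0.21 for Fcer2a and 0.34 for Ighm. With the mean of the T cell markers taken out of the strain means, r of the 6 genes fell to between 0.31 in Cr2 (adjusted p = 0.040) and 0.52 in Blk and Cd22, with 0.36 in Ms4a1 and 0.38 in Cd79b and Pou2af1, all still past the threshold. Fcer2a then had an r of -0.26 (adjusted p = 0.089) and Ighm one of -0.092.

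Taking all pairs as a description, Cd79b and Ms4a1 were the closest, with an r of 0.94 within strains and 0.92 across them. The 28 pairs without Ighm had r within strains of 0.48 to 0.94, with a median of 0.70. The 8 pairs with Ighm had r of 0.17 to 0.33, with a median of 0.26, so the ranges of this measure did not overlap. Those of rho within strains did, at 0.30 to 0.94 without Ighm and 0.18 to 0.33 with it. So did those of r across strains, at 0.31 to 0.92 and 0.17 to 0.34. By rho across strains the pairs without Ighm began lower, at 0.16 to 0.92, than those with it, at 0.27 to 0.42. Cd79a, the reference, was not the gene most tied to the rest: Cd79b had r of 0.83 with Blk, 0.88 with Cd22 and 0.88 with Pou2af1, each above the value of Cd79a with the same gene. Across strains Fcer2a was closest to Cr2, with an r of 0.75. These coefficients share arrays, and a probe set near the bottom of the range, as for Ighm, Cr2 and Fcer2a, has little room below its median.

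**Figure D3:**
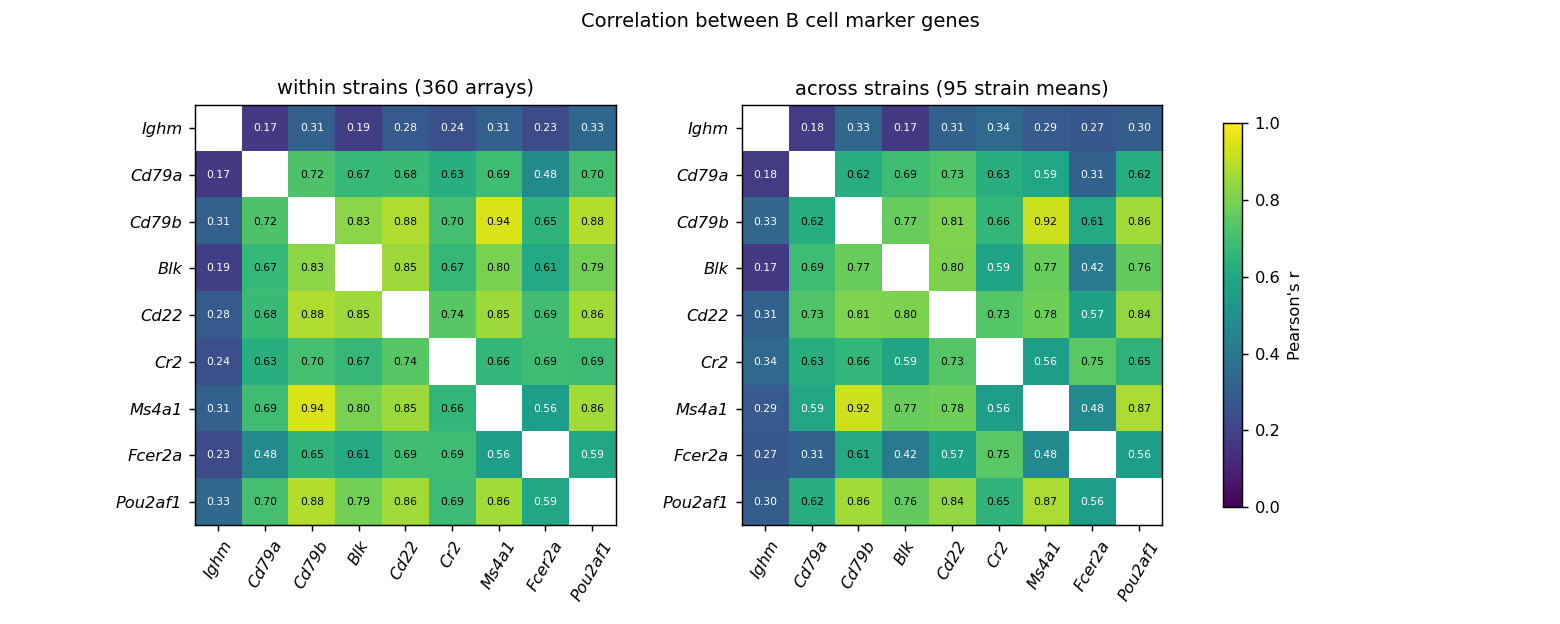
Pearson's r for each pair of the 9 genes, within strains (left, 360 arrays, strain means taken out) and across strains (right, 95 strain means), on a colour scale from 0 to 1. The Ighm row is dark on both sides, at 0.17 to 0.34, and the brightest cell is that of Cd79b with Ms4a1, at 0.94 and 0.92.

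**Figure D4:**
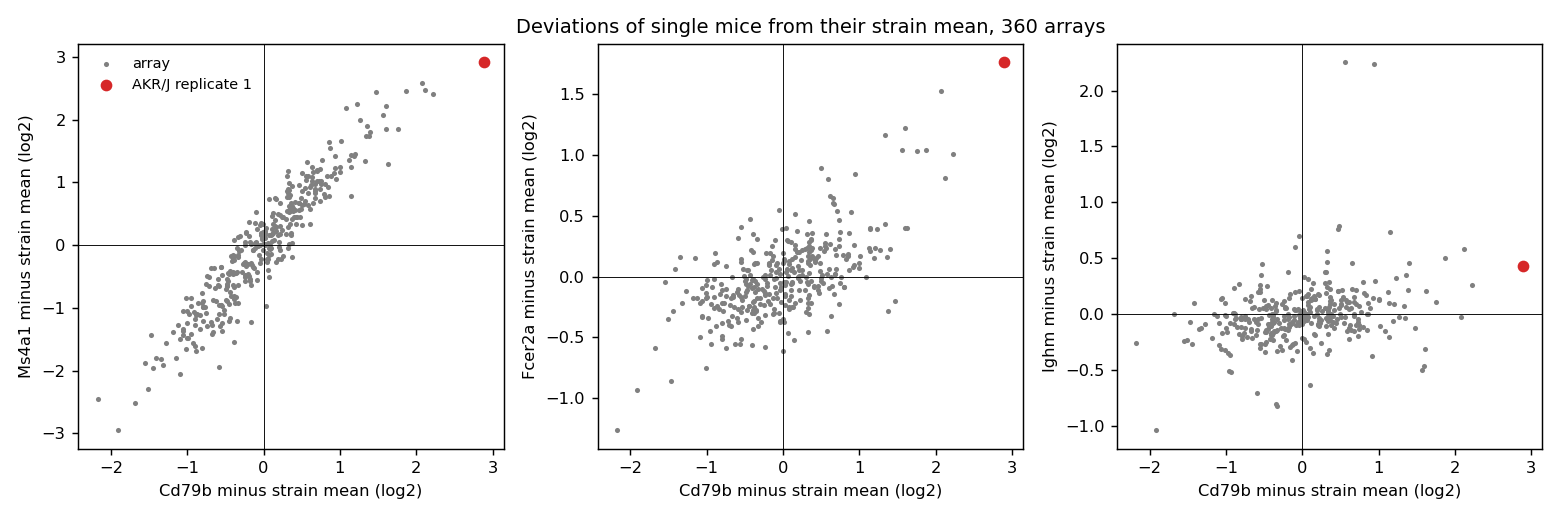
Deviation of each array from its strain mean (log2) for Ms4a1, Fcer2a and Ighm against that for Cd79b, 360 arrays, with AKR/J replicate 1 in red. Ms4a1 follows Cd79b over the whole range (r 0.94), Fcer2a follows it less closely (r 0.65), and Ighm keeps to a narrow range apart from a few arrays (r 0.31).

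The 5 genes outside the set with the highest r were taken for each member. Within strains these were 22 different genes, 11 of them on the 3 further B lineage lists used below, and across strains 26, with 12 on those lists. For Cd79b, Ms4a1, Cd22, Blk and Pou2af1 the gene with the highest r within strains was Bank1, an adaptor of B cell receptor signalling, with r from 0.83 for Blk to 0.91 for Ms4a1 over 360 arrays. For Cd79a it was Spib, an ETS transcription factor of B cells, with an r of 0.71, followed by Tnfrsf13b, the receptor TACI, at 0.68, Cxcr5, the receptor for the follicle chemokine CXCL13, at 0.68, Bank1 at 0.68 and Ltb, lymphotoxin beta, at 0.67. For Cr2 it was Ccr6, a chemokine receptor, with an r of 0.78, and for Fcer2a it was Limd2, at 0.77. Ighm was nearest to Cxcl13, the chemokine that draws B cells into follicles, but only with an r of 0.42, and the next was Iglv1, a lambda light chain segment, at 0.41. Genes of wider use were among the 5 as well, such as Cd2 for Cd79b (r 0.86) and Ms4a1 (r 0.82), and Ptprc, the leukocyte phosphatase CD45, for Cd22 (r 0.85) and Ms4a1 (r 0.80). Across the 95 strains the genes nearest to Cd79a were Arhgap45 (r 0.74), Gimap3 (r 0.72), Rac2 (r 0.71), Zc3h12d (r 0.70) and H2-Ob (r 0.70).

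Other lists of the B lineage were read by the same regression on Cd79a within strains. Of 16 genes of B cell receptor signalling, 13 rose with Cd79a and 0 fell, with a median r of 0.56. Bank1 was the highest (r 0.68), and the kinase Btk, lost in human agammaglobulinaemia, had 0.61, the adaptor Blnk 0.58 and the phosphatase Ptpn6 0.59. Not past the threshold were Cd81 (r 0.11), at a mean level of 10.5, and Syk (r 0.16) and Vav1 (r 0.05), at 2.68 and 2.76, low on the array. Of 15 other B lineage genes, 14 rose, with a median r of 0.61, from Tnfrsf13b (r 0.68) down to Cd24a (r 0.15), the only 1 not called.

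Of 10 transcription factors of B cells, 8 rose, with a median r of 0.38. Spib had 0.71, Irf8 0.62 and Bcl11a 0.59, while Pax5, the factor that fixes B cell identity, had 0.24 (adjusted p = 0.0029) at a mean level of 2.58, low on the array. Ebf1, which starts the B cell programme and is also active in fat and stroma, had an r of 0.16 (adjusted p = 0.095) at a mean level of 8.33.

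Antibody-secreting cells were read from 6 plasma cell genes. Of these 2 rose with Cd79a, and the median r was 0.11, whereas the mean of the 6 had an r of 0.41 with Cd79a and of 0.54 with Cd79b. The genes that rose were Jchain (r 0.42) and Tnfrsf17, the receptor BCMA (r 0.21), while Igha, the heavy chain of IgA, had -0.02 and Prdm1, the factor Blimp-1, 0.05.

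Lists of other cells moved too. Of 13 T cell genes, 12 rose with Cd79a, with a median r of 0.36, from Cd2 (r 0.66), an adhesion receptor that mouse B cells also carry, to Thy1 (r 0.09). Cd3d, a chain of the T cell receptor complex, had an r of 0.53. All 8 MHC class II genes rose, with a median r of 0.50, from H2-DMb1 (r 0.35) to H2-DMb2 (r 0.56). Of 10 macrophage genes 9 rose, with a median r of 0.25, from Lyz2 (r 0.44) to Mrc1 (r 0.03). Of 11 genes listed for lymph node stroma and vessels 7 rose, with a median r of 0.21. The highest was Ltb (r 0.67), which like Lta (r 0.21) is a lymphotoxin gene that lymphocytes themselves express. The genes that rose also included Glycam1, a ligand for L-selectin made by the high endothelial vessels of lymph nodes (r 0.54, at a mean level of 3.07), Cxcl13 (r 0.49) and Ccl19, a T zone chemokine (r 0.33). Madcam1 and Chst4, also genes of such vessels, had r of 0.17 and 0.03 and did not pass. The T cell covariate above includes Cd2, so it does not isolate T cells, and the part of these cells in the relations was not otherwise tested.

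Genes of the vessel wall and of other tissues mostly stood apart. Of 6 thymocyte genes, 8 endothelial, 6 adipocyte, 7 hepatocyte and 4 erythroid genes, 0 passed the test in either direction by limma. At an unadjusted p under 0.05 by limma there were 3, all endothelial. The share of all probe sets at that unadjusted level is not given here. Of 8 neutrophil genes 2 rose. Of 6 smooth muscle genes, 1 fell, Lmod1 (r -0.19, adjusted p = 0.029), and the list median was -0.10.

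**Figure D5:**
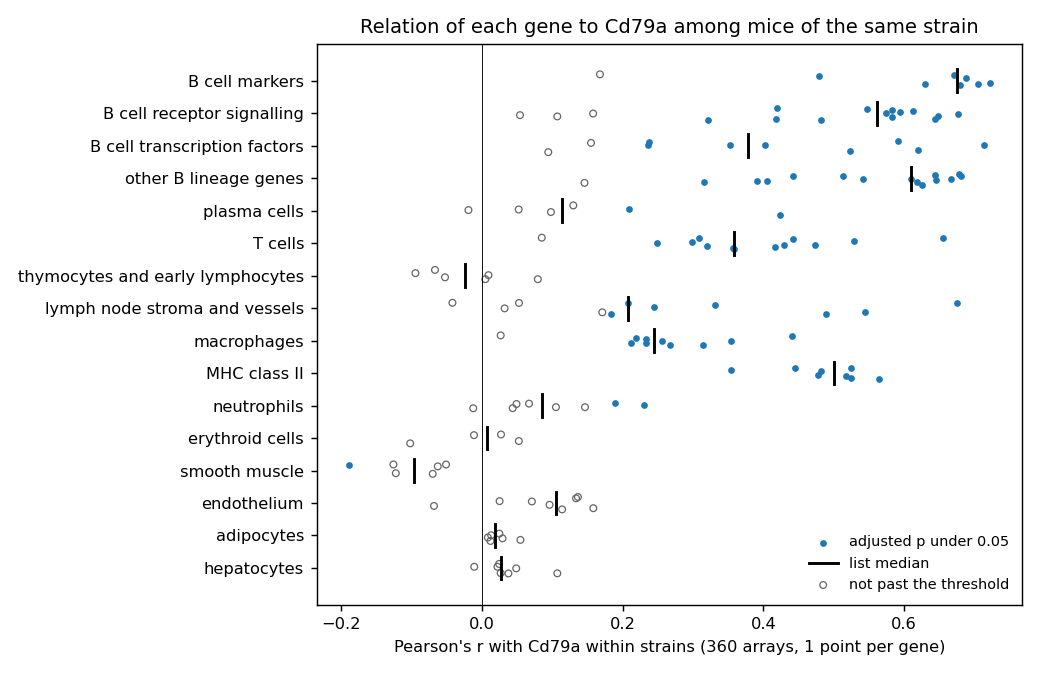
Pearson's r of each gene with Cd79a within strains over 360 arrays, 1 point per gene in 16 lists, filled where the adjusted p was under 0.05, with the list median as a bar. The B cell markers, the other B lineage genes and the receptor signalling genes have the highest medians, at 0.67, 0.61 and 0.56, followed by MHC class II at 0.50, the B cell transcription factors at 0.38 and T cell genes at 0.36, and the vessel wall and adipocyte lists lie near 0.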

How the data were processed

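The authors hybridised aortic RNA to Affymetrix Mouse Genome HT_MG-430 arrays and deposited 1 table of RMA values, log2 intensities for 45141 probe sets in 366 arrays. Per the labels' processing notes GCOS and RMA were used, with versions not given in the sources used here. No scan date or batch was given, depth does not apply to arrays, and their number per strain limits the precision. Symbols came from the platform annotation: 28898 probe sets had 1 symbol, 551 had several and 15692 had none and were tested unnamed. Replicates are separate mice, numbered here in accession order. No deposited column was left unused.

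Members and lists were chosen with earlier results of these data known. The 16 lists held markers of B cells, plasma cells, T cells, thymocytes, lymph node, macrophages, MHC class II, neutrophils, erythroid cells, smooth muscle, endothelium, adipocytes and hepatocytes, and 3 further B lineage sets. Named genes were the 9, each list's extremes and examples of known role (the latter chosen after their values were seen), and the genes with the highest r; named strains were the 3 highest and lowest means and every called strain.

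Values were used as deposited, without a filter. limma 3.58.1 in R 4.3.3 (lmFit, eBayes) gave the F test, contrasts and regressions, with Benjamini-Hochberg adjustment over all probe sets at 0.05. The correlation across strain means was tested against the t distribution with the same adjustment. Intraclass correlations, permutation tests (100000, two-sided) and exact tests were computed in Python 3.11.15 with NumPy 2.4.6 and SciPy 1.17.1. The limma fits were tested on simulated data. Alternatives changed the variance prior, array weights, filter, scaling, probe set, strains, arrays, correlation measure, covariate and reference gene.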

Additional observations from a re-analysis of the deposited data

Results flagged for a closer look

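The strains that passed a test or were progenitors were examined for a single array far from the others by Dixon's criterion, apart from A/J, whose 3 arrays are too few for it. Of 81 groups of a gene and a strain in these 9 strains, 9 had one. Chance alone would give about 1 in 20, but 6 of the strains entered because a gene was called in them, and each of those calls was lost without 1 array, so the count is not to be read against that rate. Most were high arrays already met above. Cd22 in BALB/cJ replicate 4 was at 7.48, with the next array at 5.39, and Ms4a1 in SWR/J replicate 1 was at 8.29, with the next at 5.93. Both belong to the arrays that were high for most of the 8 genes. In C57BL/6J, replicate 6 was at 5.49 for Pou2af1 and at 3.69 for Cr2, against 3.91 and 2.89 in the next arrays, while its Cd79b value of 6.31 was close to the 6.29 of replicate 1. Cd79a in C3H/HeJ replicate 2 was at 5.004, with the next array at 4.59.

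For Ighm, 4 strains had 1 array flagged by this criterion. CXB7/ByJ replicate 3 was at 5.60 and LG/J replicate 4 at 5.59, with the next arrays at 2.87 and 2.71. C3H/HeJ replicate 3 was at 3.34 and SWR/J replicate 1 at 2.85, with the next at 2.85 and 2.73. The SWR/J values lay between 2.70 and 2.85, a narrow range beside the SD of 0.32 between mice of a strain.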

How the results depend on the processing

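No paired analysis was possible because replicate numbers only name mice in accession order. The number of genes called by the F test, 6, ran from 2 to 7 when arrays were left out, with 3 without replicate 1 and 2 without replicate 2, and was 5 or 6 under the other settings. Of the pairs of a gene and a strain, 15 were called and 8 to 20 when arrays were left out, with 8 each without replicate 1 and without replicate 3, and 9 of 475 when only the brighter probe sets (mean over their median) were tested. The single BALB/cJ call against C57BL/6J went to 0 with robust eBayes and an intensity trend, with the brighter probe sets (Fcer2a is then not tested) and with the probe sets of second highest mean, and was 0 or 1 when arrays were left out. The 7 genes that rose with Cd79a within strains became 4 of 4 tested with the brighter probe sets and stayed 7 in each fit with arrays left out. Across strains 6 to 8 were called under all settings. The cause of these changes was not tested beyond the number of genes tested.

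Some values changed sign, called ones among them. Ighm, called at 0.67 in CXB7/ByJ and 0.65 in LG/J, ran from -0.093 to 1.02 in CXB7/ByJ and from -0.11 to 0.94 in LG/J when arrays were left out, at -0.093 and -0.074 in CXB7/ByJ without replicate 3 of every strain or of this strain, and at -0.11 and -0.098 in LG/J without replicate 4. Cd22 in A/J, 0.63 and not called, ran from -0.064 to 1.07. With the T cell mean taken out across strains, the r with Cd79a went from 0.18 to -0.092 for Ighm and from 0.31 to -0.26 for Fcer2a. The median share of variance among strains, 8.53%, ran from 7.22% to 12.9% when arrays were left out. Over all probe sets, calls rose from 34765 to 39851 for the F test and from 176992 to 335166 for single strains with array weights, and those for single strains fell to 92047 without replicate 3. With the brighter probe sets 21625 of 22570 were called by the F test, a higher share (95.8%) of fewer tested. Calls with Cd79a within strains went from 3656 to 7405 after a further quantile normalisation and to 1654 without replicate 3. DBA/2J had 1594 calls and 5133 with array weights, A/J 2195 and 1017 without its replicate 3, and BALB/cJ 3194 and 2004 without its replicate 2. With 2 to 8 mice per strain, small differences of single strains can have been missed, and how small was not calculated.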
